A study of Mus musculus with 4 samples.

Results

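The PI3K, AKT and mTOR pathway was examined through 9 genes in immune cells of the mouse lung. They are Pik3ca, Pik3cd and Pik3r1, which encode subunits of class I phosphoinositide 3-kinase (PI3K), the kinases Akt1 and Akt2, and Mtor, Rptor, Rictor and Tsc2. The genes were chosen by symbol from the 31053 genes listed in the files, each symbol matched 1 row, and all 9 were counted in every library.

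Class I PI3K is a heterodimer of a catalytic and a regulatory subunit that is recruited to activated receptors and phosphorylates a membrane lipid. The lipid draws AKT to the membrane, where it is phosphorylated and in turn phosphorylates many targets, including the TSC2 protein, which otherwise holds the kinase mTOR in check. mTOR works in a pair of complexes. The one with Raptor (Rptor) promotes protein synthesis and growth, and the one with Rictor phosphorylates AKT. In T cells the pathway acts downstream of the antigen receptor, costimulation and cytokines, and the delta catalytic subunit, encoded by Pik3cd, is enriched in leukocytes. The pathway is switched by phosphorylation, which transcript counts do not measure.

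The study asked how IFT20, an intraflagellar transport protein, acts in CD4+ T cells during allergen-induced airway inflammation. All mice were C57BL/6 and carried floxed Ift20 alleles. Mice without Cre (Ift20 f/f) are called WT, and those that also carried CD4 cre (Ift20 f/f CD4 cre) are called KO. The Cd4 promoter is active in precursors of both CD4 and CD8 T cells, so Cre acts in both lineages. The mice were young males per the methods of the study. Papain, a cysteine protease that serves as an inhaled allergen, was given into the nose at 25 µg on 3 consecutive days and again on day 14, lungs were taken on day 15, and the other mice were labelled DPBS, a buffered saline. Live CD45.2+ cells were sorted, so leukocytes of every lineage were included, and 1 library was made per group by the 10x Genomics 3′ v3 chemistry. The 4 groups are named by treatment and genotype, as in Papain KO. The number of mice behind a library is not given in the sources used here, so differences between groups carry no estimate of the variation among animals.

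The libraries held 5863 to 8552 cell barcodes and 53854420 to 75675956 unique molecular identifiers (UMIs), of which 5433 to 7587 cells per library were kept. Each pair of libraries shared 7 to 16 barcodes. Cells were clustered without the pathway genes, and clusters were named from marker genes, with the ending -like. 10 classes had at least 20 cells in each library: CD4 T, CD8 T, type 2 innate lymphoid cells (ILC2), natural killer (NK) cells, B cells, alveolar macrophages, interstitial macrophages, conventional dendritic cells (DC), monocytes and neutrophils. The conventional DC-like class was only the cluster of 131 cells led by genes such as Cadm1, Xcr1 and Clec9a. A cluster of 306 cells led by Cd209a and Mgl2 also scored highest for conventional DC. It was left unnamed, so the values of this class leave it out. Interstitial macrophage-like cells of DPBS KO were shallow, with a median of 2890 UMIs against 7620.5 to 16915 in the other libraries. In the interstitial macrophage-like class the 8 markers of alveolar macrophages, none at 0, summed to 2127 and 14860.1 CPM in WT and KO given DPBS and 28987 and 791 CPM in WT and KO given papain, against 5415, 4433, 3072 and 4808 CPM for its own 5 markers in that order. Their part in the values of this class was not tested. A level is given as CPM, the UMIs of the gene per 1000000 UMIs of the class. Intervals are 95% intervals for counting error only. Since a 3′ library counts 1 end of each transcript, levels were compared for 1 gene between cells and not between genes.

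Positions are given in GRCm38 with the GENCODE M21 annotation. Pik3ca is on chromosome 3 (32397671 to 32468486, plus strand), Pik3r1 on chromosome 13 (101680563 to 101768217, minus strand), and Akt1 on chromosome 12 (112653821 to 112674884, minus strand). Akt2 is on chromosome 7 (27591552 to 27640826, plus strand) and Rictor on chromosome 15 (6708379 to 6800401, plus strand). Mtor (148448611 to 148557683, plus strand) and Pik3cd (149649168 to 149702571, minus strand) lie near each other on chromosome 4. Rptor is on chromosome 11 (119602905 to 119899576, plus strand), the chromosome that also holds Ift20 (78536361 to 78541737). Tsc2, on chromosome 17 from 24595816 to 24632630 on the minus strand, overlaps Pkd1 on the other strand, Mtor overlaps Angptl7 and Rptor overlaps the antisense gene Rptoros. Whether reads were counted by strand is not given in the sources used here, so the counts of these 3 genes may hold some reads of their partners.

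Across the lineages the 9 genes fell into different patterns. Akt1 was highest in monocyte-like and alveolar macrophage-like cells and lowest in B and T lymphocytes. Rictor ran the other way, with its highest levels in lymphoid classes. Pik3r1 stood out in NK-like cells, Akt2 in neutrophil-like cells and Pik3cd in neutrophil-like and CD8 T-like cells, while Pik3ca and Mtor varied less. Means below are over the 4 libraries, so their SD holds the difference between genotypes and treatments as well as error.

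**Figure D1:**
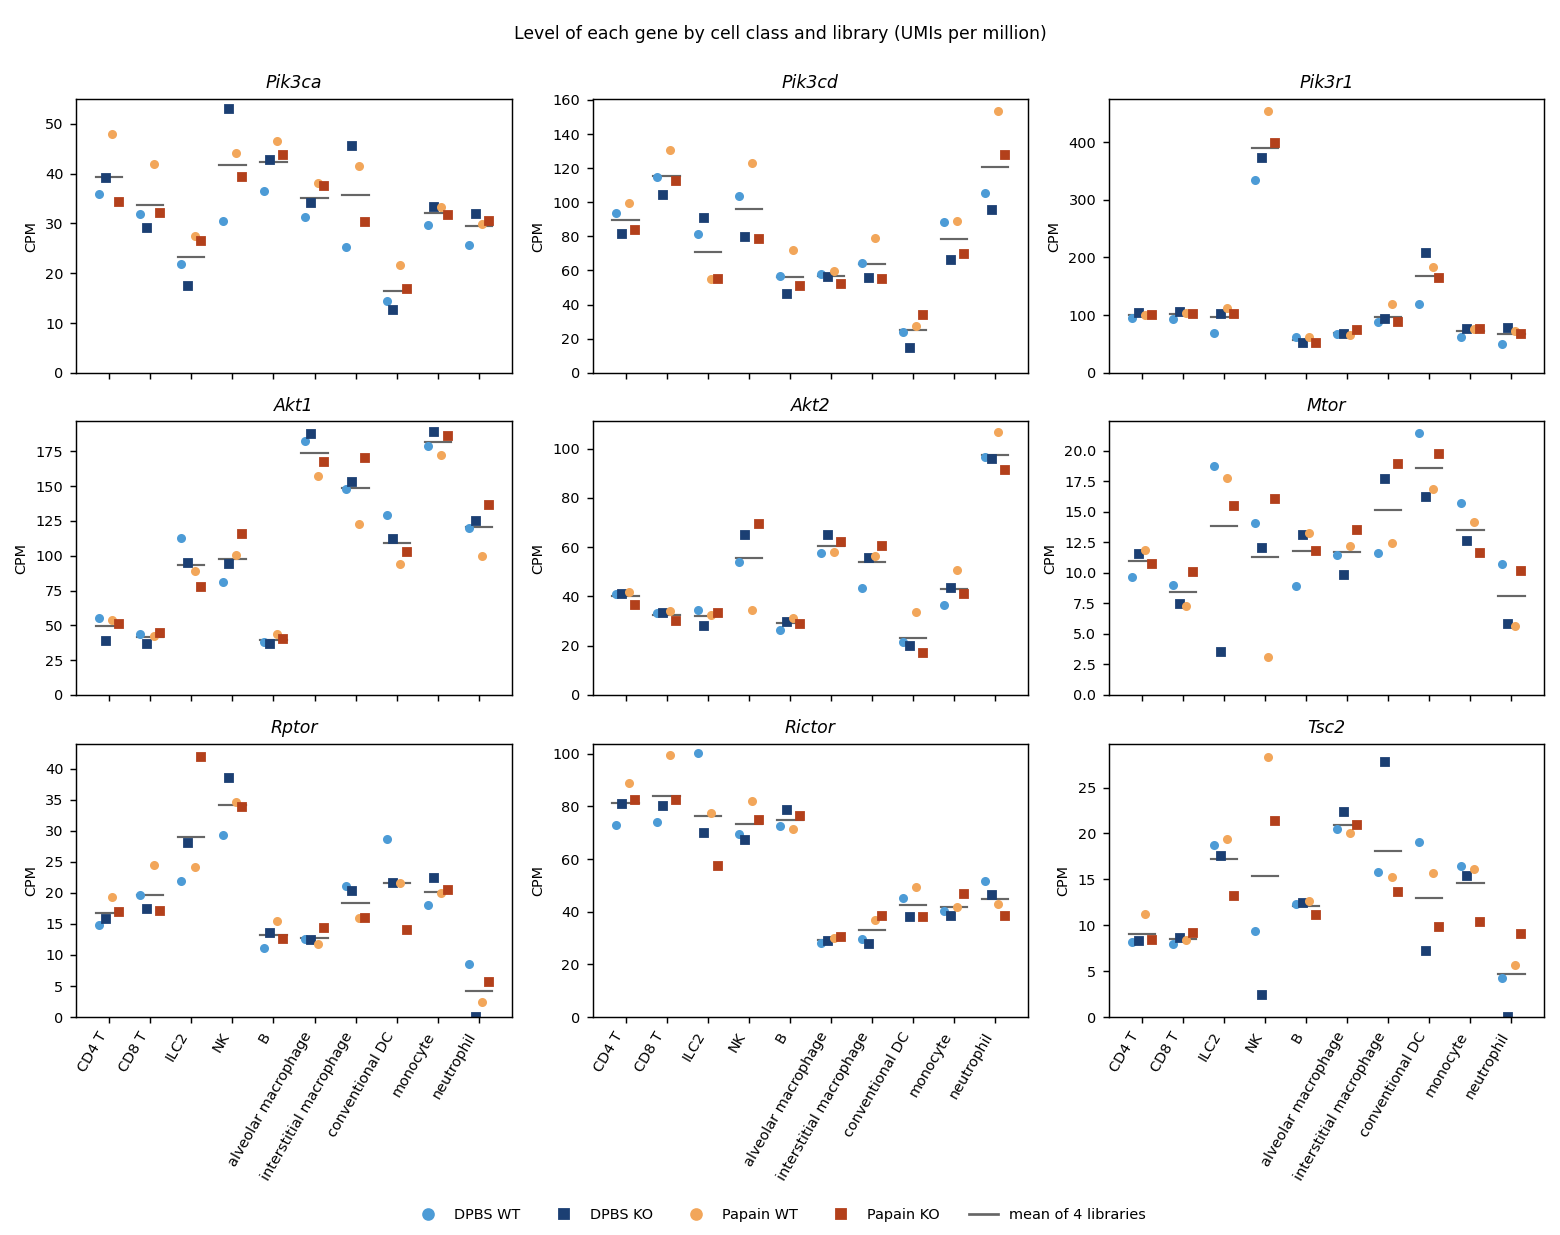
Level of each of the 9 genes (y axis, CPM from 0) in 10 cell classes named from markers (x axis) in each of the 4 libraries (points), with the mean of 4 libraries as a bar. Akt1 is high in the macrophage and monocyte classes, Rictor in the lymphoid classes, Pik3r1 in NK cells and Akt2 in neutrophils.

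Of the PI3K catalytic subunits, Pik3ca encodes p110 alpha, which is found in most tissues. Its mean level ran from 42.4 ± 4.26 CPM (SD, n = 4 libraries) in B-like cells to 16.4 ± 3.93 CPM in conventional DC-like cells. Each class overlapped the next one in this order. In CD4 T-like cells Pik3ca was at 35.8 and 39.1 CPM in WT and KO given DPBS and 47.9 and 34.2 CPM in WT and KO given papain, with Papain WT the highest.

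Pik3cd encodes p110 delta. Its mean was highest in neutrophil-like (120.5 ± 25.7 CPM) and CD8 T-like cells (116 ± 11.2 CPM), followed by NK-like cells (96.1 ± 21.3 CPM) and CD4 T-like cells (89.4 ± 8.56 CPM). Alveolar macrophage-like (56.6 ± 3.20 CPM) and B-like cells (56.4 ± 11.1 CPM) were lower, and conventional DC-like cells were lowest at 25.0 ± 8.13 CPM, with no library above those of the B-like cells. The last value rests on 65 UMIs in all 4 libraries.

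Pik3r1 encodes p85 alpha, the regulatory subunit that holds the catalytic subunit stable and links it to receptors. In NK-like cells it was at 334 and 373 CPM in WT and KO given DPBS and 454 and 398 CPM in WT and KO given papain. These values did not overlap with those of any other class. The next class was conventional DC-like cells at 169 ± 37.2 CPM, then CD8 T-like (101 ± 5.94 CPM) and CD4 T-like cells (99.6 ± 3.51 CPM), which overlapped each other. B-like cells had the lowest mean, 57.0 ± 6.31 CPM.

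Akt1 encodes the AKT kinase most tied to growth and survival. In monocyte-like cells it was at 179 and 189 CPM in WT and KO given DPBS and 172 and 186 CPM in WT and KO given papain, and in alveolar macrophage-like cells at 183, 187, 157 and 167 CPM in the same order. Those 2 classes overlapped. Interstitial macrophage-like cells (149 ± 19.4 CPM), neutrophil-like cells (120.4 ± 15.2 CPM), conventional DC-like cells (109 ± 15.0 CPM), NK-like cells (97.9 ± 14.5 CPM) and ILC2-like cells (93.3 ± 14.8 CPM) came next, each overlapping its neighbour. A gap without overlap separated these 7 classes from CD4 T-like (49.7 ± 7.59 CPM), CD8 T-like (41.8 ± 3.53 CPM) and B-like cells (39.7 ± 3.16 CPM). The innate lymphocytes, NK and ILC2, were thus on the side of the myeloid cells.

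Akt2 encodes the AKT kinase best known from insulin signalling. Its level was highest in neutrophil-like cells, at 96.6 and 95.7 CPM in WT and KO given DPBS and 107 and 91.4 CPM in WT and KO given papain. No other class reached these values, although they rest on only 33 to 132 UMIs per library. Alveolar macrophage-like cells followed at 60.7 ± 3.59 CPM. CD4 T-like cells, at 40.1 ± 2.35 CPM, lay above CD8 T-like cells, at 32.6 ± 1.78 CPM, in all 4 libraries without overlap, although the test below did not call this difference. B-like cells were at 29.1 ± 2.06 CPM.

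Mtor, the catalytic subunit of both mTOR complexes, was counted at low levels and without a marked pattern. Its means ran from 18.6 ± 2.48 CPM in conventional DC-like cells to 8.09 ± 2.74 CPM in neutrophil-like cells, and each class overlapped the next. CD4 T-like cells were at 11.0 ± 1.01 CPM.

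Rptor was highest in NK-like (34.1 ± 3.74 CPM) and ILC2-like cells (29.0 ± 8.96 CPM), at 16.7 ± 1.93 CPM in CD4 T-like cells, and lowest in neutrophil-like cells, where 12 UMIs were counted in all. DPBS KO had 0 Rptor UMIs in neutrophil-like cells, which allows up to 8.70 CPM. Alveolar macrophage-like cells, the next class, had no library below those of the neutrophil-like cells.

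Rictor divided the lineages most evenly. CD8 T-like cells were at 84.0 ± 11.0 CPM, CD4 T-like at 81.3 ± 6.49, ILC2-like at 76.3 ± 17.99, B-like at 74.6 ± 3.25 and NK-like at 73.4 ± 6.55, and these 5 lymphoid classes overlapped each other in turn. The 5 myeloid classes lay below the NK-like cells without overlap, from 44.8 ± 5.57 CPM in neutrophil-like cells to 29.3 ± 1.07 CPM in alveolar macrophage-like cells. Over the 40 combinations of class and library, the levels of Akt1 and Rictor, as log2(CPM + 1), had a Pearson correlation of -0.79, the most negative of the 36 pairs of the 9 genes. The points share libraries and depth, so this is a description.

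Tsc2 encodes the GTPase-activating protein of the TSC complex, the inhibitor of mTOR complex 1. It was highest in alveolar macrophage-like cells, at 20.5 and 22.3 CPM in WT and KO given DPBS and 20.04 and 20.9 CPM in WT and KO given papain. The T-like classes were low, with 9.04 ± 1.44 CPM in CD4 T-like and 8.54 ± 0.503 CPM in CD8 T-like cells. In neutrophil-like cells 17 UMIs were counted in all, and 0 in DPBS KO, which allows up to 8.70 CPM.

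To ask which of these differences exceeded their variation from library to library, CD4 T-like cells were compared with 5 other classes. The test was edgeR's quasi-likelihood test on UMIs summed per class and library, with library as a block and Benjamini-Hochberg adjustment over 12263 genes. With this block, the spread used is that left in the class differences between libraries. It holds any part of a class difference that varies with genotype or treatment, and does not measure variation among animals. Values are log2 differences, CD4 T minus the other class, after TMM scaling. The clusters are defined by gene expression, and none of the 9 genes was used to form them.

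In the comparison with CD8 T-like cells, 1 of the 9 genes was called, where 13.3% of all genes were. Pik3cd was lower in CD4 T-like cells by a log2 difference of -0.48 (adjusted p = 0.00221 in edgeR). The other 8 genes had differences between -0.34 (Rptor, adjusted p = 0.0876) and 0.25 (Mtor, adjusted p = 0.395). Akt2, whose levels did not overlap between these classes, was among those not called (0.18, adjusted p = 0.221 in edgeR). Against B-like cells 5 of 9 were called, with 51.8% of all genes, and all 5 were higher in CD4 T-like cells. They were Pik3r1 (0.84), Pik3cd (0.71), Akt2 (0.50), Rptor (0.39) and Akt1 (0.36), with edgeR adjusted p from 3.08e-08 to 0.0145. Akt1 and Rptor were no longer called without the DPBS WT library, when the count fell to 3.

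Against alveolar macrophage-like cells 8 of 9 were called, with 77.8% of all genes. CD4 T-like cells had more Rictor (1.73), Pik3cd (0.91), Pik3r1 (0.79), Rptor (0.65) and Pik3ca (0.42), and less Akt1 (-1.55), Tsc2 (-0.95) and Akt2 (-0.34). Mtor, at 0.16, was the gene not called. Against monocyte-like cells 5 of 9 were called, with 72.7% of all genes, and here too Akt1 (-1.85) and Tsc2 (-0.67) were lower and Rictor (0.98), Pik3r1 (0.48) and Pik3ca (0.32) higher in CD4 T-like cells. Against neutrophil-like cells 5 of 9 were called, with 65.6% of all genes. Akt2 (-1.77), Akt1 (-1.71) and Pik3cd (-0.93) were lower and Rptor (1.55) and Rictor (0.44) higher in CD4 T-like cells. Mtor was called in none of the 5 comparisons by this test. The share of the 9 genes called was near or below that of all genes against the CD8 T-like, B-like, monocyte-like and neutrophil-like cells, so the number of calls is no sign that the pathway differed more between lineages than other genes.

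Within the T lineage Akt1 and Rictor also differed between sub-clusters. Sub-clusters T0 and T1, which held most CD4 T-like cells and were led by genes such as Ly6c1 and Igfbp4, had little Akt1. It was at 31.8 and 33.8 CPM in WT and KO given DPBS and 36.2 and 35.5 CPM in WT and KO given papain in T0. Sub-cluster T8, led by cell division genes such as Ccna2 and Kif11 and made up of both CD4 and CD8 cells, had 154, 150.1, 135 and 140.1 CPM in the same order. Sub-cluster T5, led by Ctla4, Pdcd1 and Tnfsf11, had 62.4 to 70.6 CPM, and T9, which the naming rule left unnamed, led by Foxp3 and with Il1rl1 and Klrg1 among its leading genes, had 80.7 to 93.8 CPM. The ranges of T0, T5, T9 and T8 did not overlap, and within each sub-cluster the counting intervals of the 4 libraries overlapped. Rictor was at 94.9 ± 8.77 CPM in T0 and 44.2 ± 6.87 CPM in T8 (SD, n = 4 libraries). Sub-clusters are described without a test, because they were formed from the same cells.

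**Figure D2:**
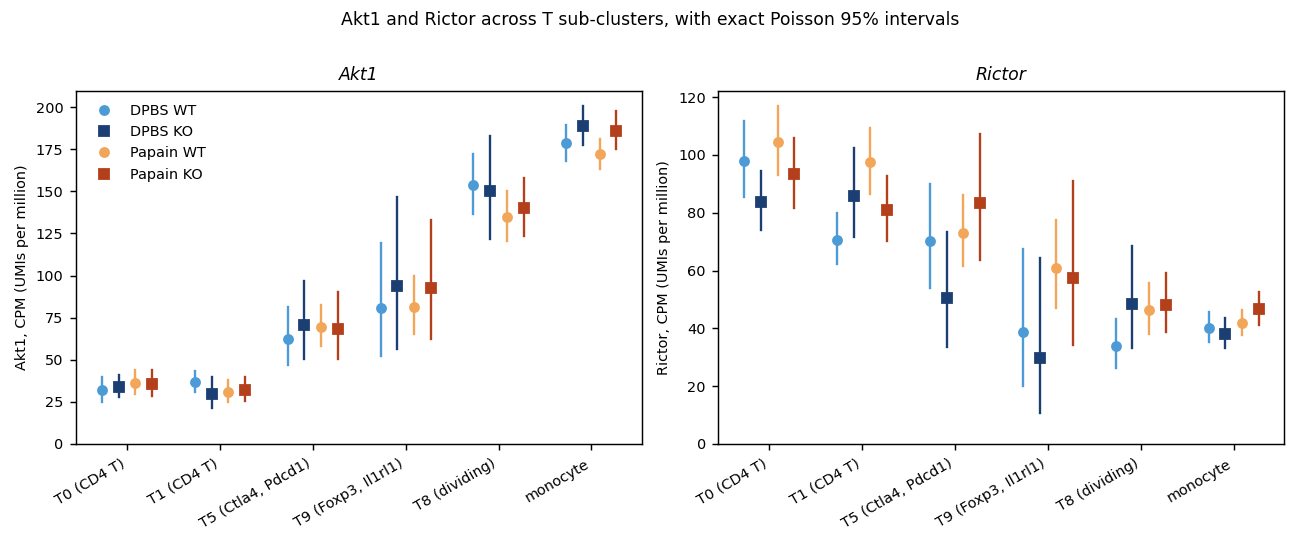
Akt1 (left) and Rictor (right) in CPM (y axes, from 0) in 5 T sub-clusters and in monocyte-like cells (x axis) for the 4 libraries, with exact Poisson 95% intervals as lines. Akt1 is higher in the dividing sub-cluster T8 than in T0 and T1 in each library, and there Rictor is about as low as in monocyte-like cells.

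Loss of Ift20 was examined next. The targeted gene was at 57.9 and 21.6 CPM in WT and KO given DPBS and 54.6 and 18.2 CPM in WT and KO given papain in CD4 T-like cells, a log2 ratio of KO to WT of -1.42 (-1.73 to -1.12) with DPBS and -1.58 (-1.89 to -1.28) with papain. In CD8 T-like cells the ratios were -1.65 and -1.68. In B-like cells they were -0.35 (-0.58 to -0.12) and 0.05 (-0.14 to 0.25). Alveolar macrophage-like cells were at 0.05 (-0.06 to 0.15) and -0.16 (-0.30 to -0.02), and monocyte-like cells at -0.10 (-0.35 to 0.14) and -0.12 (-0.34 to 0.11). Below, a gene is called past the fold where its log2 ratio is 0.5 or more in size with at least 50 UMIs in both libraries together. With 1 library per group this is not a test.

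In CD4 T-like cells given DPBS, 1 of the 9 genes was past the fold, where 17.2% of 8871 genes were. Akt1 was at 55.5 CPM (50.4 to 61.1) without and 38.7 CPM (33.6 to 44.4) with Cre, a log2 ratio of -0.52 (-0.77 to -0.28). The share of dividing cells also differed between these libraries, and its part in the ratio was not tested. Cells with an Mki67 or Top2a UMI, a pair of genes of dividing cells, made up 8.43% of the CD4 T-like cells in DPBS WT and 6.01% in DPBS KO, and without them the ratio was -0.01. It was 0.09 (-0.35 to 0.54) within sub-cluster T0 and -0.31 (-0.84 to 0.20) within T1. Taken as a mean over cells, which gives shallow and deep cells equal weight, it was -0.06.

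The other 8 genes had log2 ratios between -0.21 (Pik3cd, -0.38 to -0.03) and 0.26 (Mtor, -0.25 to 0.77), and 7 of the 9 were above 0, where 41.2% of all genes were. Summed over the 9 genes, the level was 427 CPM in WT and 419.95 CPM in KO. T1 held 668 cells of DPBS WT and T0 412, but T1 held 253 and T0 531 cells of DPBS KO, so different sub-clusters made up most of the class in these libraries.

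In CD4 T-like cells given papain, 0 of the 9 genes was past the fold, where 13% of 9273 genes were, but all 9 log2 ratios of KO to WT were below 0. In the same comparison 66.1% of all genes were below 0, and the median of all genes was -0.09 against -0.19 for the 9. Pik3ca was at 47.9 CPM (43.3 to 52.8) without and 34.2 CPM (29.8 to 39.1) with Cre, a log2 ratio of -0.48 (-0.73 to -0.24). Within sub-cluster T0 the ratio was -0.65 (-1.03 to -0.28) and within T1 -0.20 (-0.64 to 0.24). Pik3cd, at 99.4 and 83.5 CPM, had a ratio of -0.25 (-0.41 to -0.09), and -0.080 in cells gated by transcripts. The intervals of the other 7 genes held 0, from Tsc2 at -0.42 (-0.93 to 0.08) to Pik3r1 at -0.01 (-0.16 to 0.14). The 9 genes summed to 474 CPM in WT and 423 CPM in KO, a ratio of -0.16 (-0.24 to -0.09). Under the alternatives reported, 6 to 9 of the 9 ratios were below 0, with 6 among cells gated by transcripts, of which 479 and 323 were left. Other measures moved with this comparison. The 8 markers of ILC2, none at 0, summed to 131 and 142 CPM in CD4 T-like cells of WT and KO given DPBS and to 496 and 159 CPM with papain. Cells with an Mki67 or Top2a UMI made up 11.96% of the class in Papain WT and 8.68% in Papain KO, and sub-cluster T5 held 246 cells of Papain WT and 84 of Papain KO. Without the dividing cells the 9 genes summed to 479 CPM in WT and 411 CPM in KO, and the part of the other measures in the result was not tested.

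**Figure D3:**
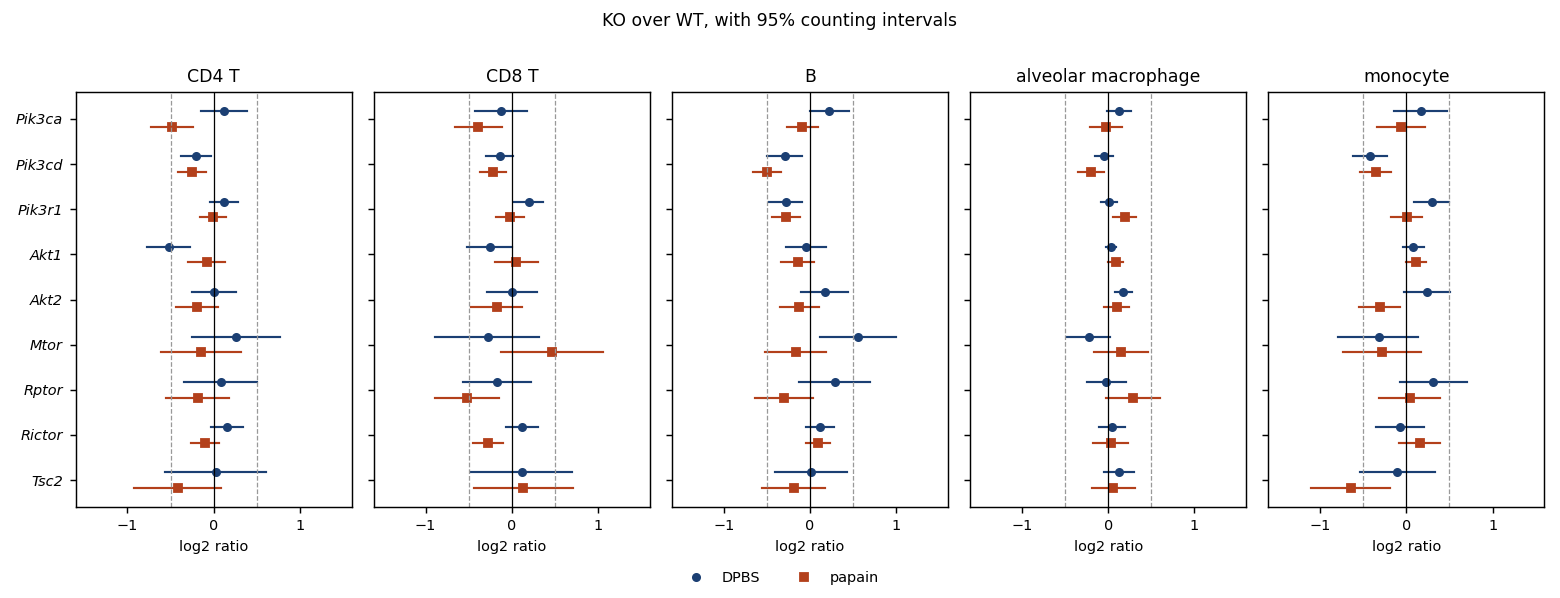
Log2 ratio of KO to WT (x axes) of the 9 genes (y axis) in 5 cell classes, with DPBS as circles and papain as squares and 95% counting intervals as lines; the solid line marks 0 and the dashed lines the fold of 0.5. Pik3cd lies left of 0 in each panel for both treatments, and the CD4 T points for papain are all left of 0.

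Pik3cd was lower in KO than in WT in all 5 of the larger classes under both treatments. In monocyte-like cells it was at 88.5 and 66.1 CPM in WT and KO given DPBS and 88.8 and 69.5 CPM in WT and KO given papain, so that both WT libraries lay above both KO libraries. The log2 ratios were -0.42 (-0.62 to -0.22) with DPBS and -0.35 (-0.53 to -0.18) with papain. In B-like cells the values were 56.7, 46.3, 71.9 and 50.9 CPM in the same order, with ratios of -0.29 (-0.49 to -0.09) and -0.50 (-0.66 to -0.34). In CD8 T-like cells they were 115, 104, 131 and 112 CPM, with ratios of -0.14 (-0.30 to 0.01) and -0.22 (-0.37 to -0.07). Alveolar macrophage-like cells, at 57.9, 56.1, 59.8 and 52.3 CPM, showed the smallest differences, -0.04 (-0.15 to 0.06) and -0.19 (-0.35 to -0.04). The monocyte-like class joined a classical and a nonclassical cluster. Over the libraries Pik3cd ran from 55.4 to 91.1 CPM in the classical and from 74.7 to 89.2 CPM in the nonclassical cluster. Ratios of KO to WT within these clusters were not computed.

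In WT against KO the 2 T-like classes carry the deletion, while B-like, macrophage-like and monocyte-like cells are outside the lineages in which the Cd4 promoter drives Cre. The 10 Pik3cd ratios come from only 4 libraries and are not independent. Of the 7287 genes with enough UMIs in all 10 comparisons, 0.741% were below 0 in each of them, and Pik3cd was the only one of the 9 genes among them. The ratio was also below 0 within T0 (-0.20 and -0.31), T1 (-0.19 and -0.42), B cluster 0 (-0.14 and -0.56) and B cluster 1 (-0.41 and -0.51), for DPBS and papain in turn. With DPBS the intervals held 0 within T0 (-0.47 to 0.07), T1 (-0.50 to 0.10) and B cluster 0 (-0.47 to 0.19). That of B cluster 1 and the papain intervals did not. The 6 T cell markers summed to 23.8 to 79.6 CPM in monocyte-like cells, against 4582 to 5203 CPM in CD4 T-like cells. Mtor, which lies near Pik3cd on chromosome 4 and was counted at low levels, had ratios of both signs, from -0.32 to 0.56. The cause of the lower Pik3cd in KO was not tested and cannot be told from 1 library per group.

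**Figure D4:**
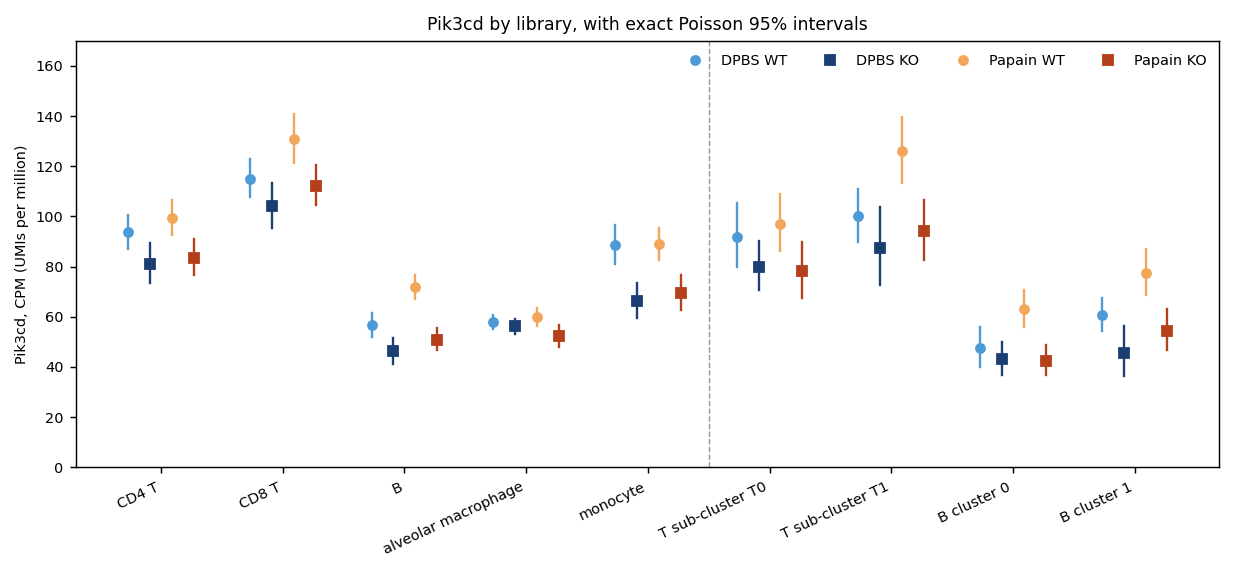
Pik3cd level (y axis, CPM from 0) in the 4 libraries for 5 cell classes (left of the dashed line) and within the 2 largest CD4 T sub-clusters and B clusters (right of it), with exact Poisson 95% intervals as lines. Each KO point (squares) lies below the WT point (circles) of the same treatment.

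In the smaller classes Pik3cd was not uniform. KO lay below WT under both treatments in NK-like (103 and 79.4 CPM with DPBS, 123 and 78.5 CPM with papain), neutrophil-like (105 and 95.7, 153 and 128 CPM) and interstitial macrophage-like cells (64.4 and 55.7, 78.9 and 55.2 CPM). These values rest on 33 to 88, 33 to 190 and 44 to 228 UMIs per library in that order. The counting intervals of WT and KO overlapped in each of these classes under both treatments. The alveolar macrophage markers given above for the interstitial class differed between its libraries. In conventional DC-like cells, with 8 to 24 UMIs per library, KO was at 14.4 against 23.9 CPM in WT with DPBS and at 33.8 against 27.7 CPM with papain. In ILC2-like cells, with 25 to 34 UMIs per library, KO was at 91.0 CPM against 81.4 in WT with DPBS and at 55.2 against 54.9 CPM with papain. Over all cells kept, Pik3cd was at 73.7 and 63.8 CPM in WT and KO given DPBS and 80.6 and 70.2 CPM in WT and KO given papain.

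Few other ratios of KO to WT were past the fold. In CD8 T-like cells none was with DPBS, where 11.9% of all genes were, and with papain Rptor alone was, at 24.5 CPM in Papain WT and 17.0 in Papain KO (-0.52, -0.89 to -0.15), where 8.51% of all genes were. The 6 markers of NK cells, none at 0, summed to 132 CPM in CD8 T-like cells of Papain WT and 294 in Papain KO, and sub-cluster T4 held 184 cells of Papain WT and 129 of Papain KO. Their part in the result was not tested. In the same comparison Pik3ca was at -0.39 (-0.66 to -0.12) and Rictor at -0.27 (-0.45 to -0.10). In B-like cells Mtor was past the fold with DPBS, at 8.93 CPM in DPBS WT and 13.1 in DPBS KO (0.56, 0.12 to 1.00), where 9.27% of all genes were, and none was with papain, where 8.10% were. The B clusters differed in size between these libraries, cluster 1 holding 1385 of 2252 B-like cells in DPBS WT and cluster 0 holding 932 of 1478 in DPBS KO. The Mtor ratio was 0.56 (-0.13 to 1.29) within cluster 0 and 0.83 (0.02 to 1.61) within cluster 1. Pik3r1 was lower in KO B-like cells under both treatments, at -0.28 (-0.47 to -0.09) and -0.27 (-0.44 to -0.11), although within B cluster 1 the DPBS ratio was -0.03.

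Alveolar macrophage-like cells had none past the fold with DPBS or papain, where 4.88% and 8.26% of all genes were, and these ratios were the most precise, with Akt1 at 0.04 (-0.02 to 0.10) and 0.09 (0.0022 to 0.18). In monocyte-like cells none was with DPBS, where 13.5% of all genes were. With papain Tsc2 was, at 16.2 CPM in Papain WT and 10.4 in Papain KO (-0.64, -1.10 to -0.18), where 9.23% were.

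Papain was compared with DPBS within each genotype. In WT the log2 ratios of Pik3ca, Pik3cd and Akt2 were above 0 in all 5 larger classes, where those of 12.1% of 7740 genes were. For Pik3ca they ran from 0.16 (-0.12 to 0.44) in monocyte-like, where the interval held 0, to 0.42 in CD4 T-like cells. For Pik3cd they ran from 0.0050 (-0.16 to 0.17) in monocyte-like to 0.34 in B-like cells. Those of Akt2 ran from 0.0082 (-0.11 to 0.13) in alveolar macrophage-like to 0.47 in monocyte-like cells. The intervals of Pik3cd and of Akt2 both held 0 in CD4 T-like and alveolar macrophage-like cells. In CD4 T-like WT cells 0 of 9 genes was past the fold, where 14.0% of all genes were. Pik3ca (0.42, 0.19 to 0.64), Rptor (0.38, 0.02 to 0.74) and Rictor (0.28, 0.12 to 0.44) had intervals above 0, and the 9 genes summed gave 0.15 (0.09 to 0.22), with a median of all genes of 0.07. Within sub-clusters T0 and T1, Pik3ca was at 0.41 (0.05 to 0.78) and 0.16 (-0.24 to 0.55), Rictor at 0.09 (-0.16 to 0.35) and 0.46 (0.22 to 0.71), and Rptor at 0.54 (-0.12 to 1.23) and 0.51 (-0.07 to 1.09). The ILC2 markers, at 131 and 496 CPM, and the dividing cells, at 8.43% and 11.96% in DPBS WT and Papain WT, were higher with papain, and their part in the result was not tested. Rictor was at 72.996 CPM in DPBS WT and 88.8 CPM in Papain WT.

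In CD4 T-like KO cells 0 of 9 was past the fold, where 10.3% of all genes were. Pik3ca was at 39.1 CPM in DPBS KO and 34.2 CPM in Papain KO (-0.19, -0.47 to 0.09), and the 9 genes summed gave 0.01 (-0.07 to 0.09). Akt1, at 38.7 and 50.7 CPM, had a ratio of 0.39 (0.13 to 0.65), which was 0.0025 without cells with an Mki67 or Top2a UMI. These cells made up 6.01% of the CD4 T-like cells in DPBS KO and 8.68% in Papain KO, and their part in the Akt1 ratio was not tested. Whether the response to papain differed between the genotypes was not tested, as there is 1 library of each.

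**Figure D5:**
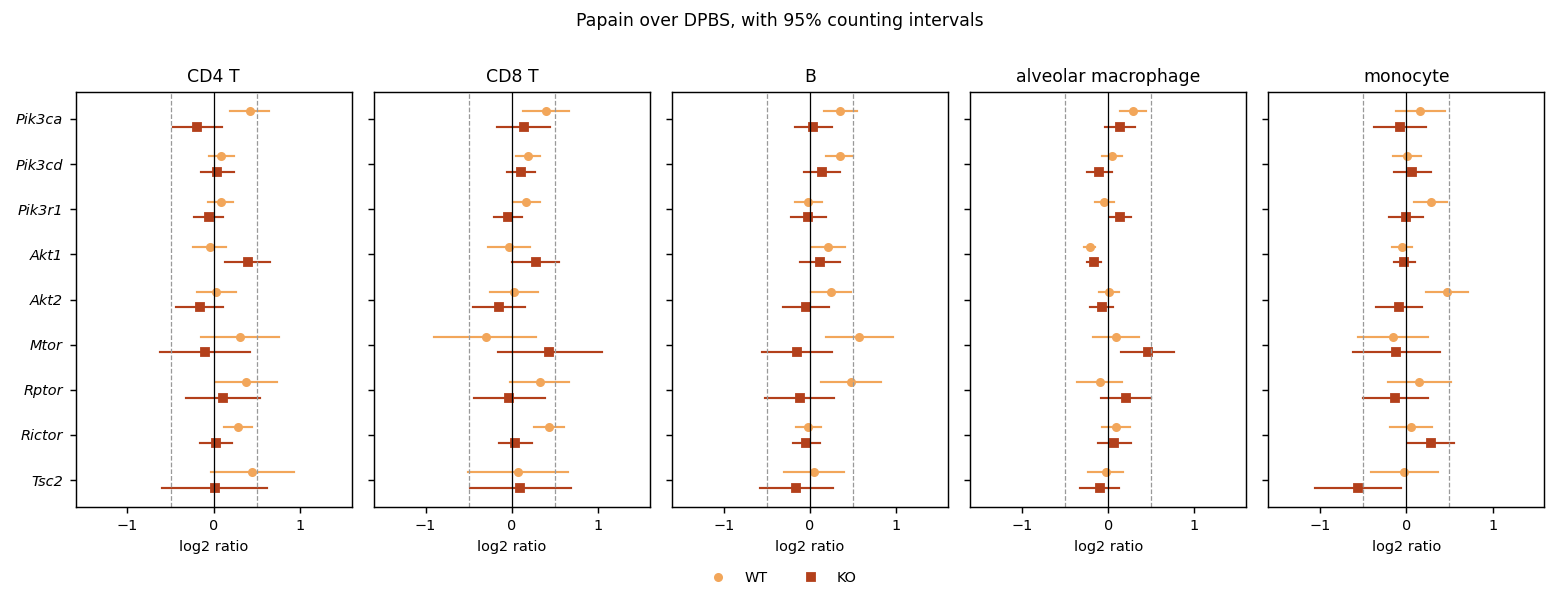
Log2 ratio of papain to DPBS (x axes) of the 9 genes (y axis) in 5 cell classes, with WT as circles and KO as squares and 95% counting intervals as lines; the solid line marks 0 and the dashed lines the fold of 0.5. Pik3ca, Pik3cd and Akt2 lie right of 0 in WT in each panel, some with intervals that hold 0. Akt1 lies left of 0 in both genotypes in alveolar macrophages.

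In CD8 T-like cells none was past the fold in WT, where 12.1% of all genes were, or in KO, where 8.92% were. Rictor (0.43, 0.26 to 0.60) and Pik3ca (0.40, 0.13 to 0.66) had the largest ratios in WT, and in KO they were 0.04 (-0.14 to 0.23) and 0.13 (-0.17 to 0.44). In B-like cells Mtor was past the fold in WT (8.93 and 13.3 CPM, 0.57, 0.19 to 0.96), where 11.9% of all genes were. Within B clusters 0 and 1 the Mtor ratio was 0.72 (0.06 to 1.42) and 0.74 (0.08 to 1.41). Rptor (0.47, 0.13 to 0.82), Pik3ca (0.35, 0.16 to 0.55) and Pik3cd (0.34, 0.19 to 0.50) followed, and in KO none was past the fold, where 5.81% were.

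In alveolar macrophage-like cells none was past the fold in either genotype, where 11.0% of all genes in WT and 8.12% in KO were. Akt1 was lower with papain in both, from 183 to 157 CPM in WT (-0.22, -0.29 to -0.15) and from 187 to 167 CPM in KO (-0.16, -0.24 to -0.08). In monocyte-like cells none was past the fold in WT, where 10.4% were, and Akt2 had the largest ratio (36.6 and 50.7 CPM, 0.47, 0.23 to 0.71). In KO Tsc2 was past the fold (15.3 and 10.4 CPM, -0.56, -1.06 to -0.06), where 7.02% were. Of all 180 ratios of the 9 genes in 5 classes and 4 comparisons, 6 were past the fold, and none exceeded 0.64 in size. In the same comparisons 4.88% to 17.2% of all genes were past the fold.

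Other genes of the pathway were taken from 8 lists by role, with 84 measured genes, the 9 genes among them. In CD4 T-like cells given DPBS, 4 of 70 genes with enough UMIs were past the fold upward and 7 downward in KO, where 5.51% and 11.7% of all genes were. The upward genes were Sgk1, a kinase activated by mTOR complex 2 (0.79, 0.59 to 1.00), Sesn2 (0.93, 0.20 to 1.68), Ulk1 (0.55, 0.16 to 0.95), which starts autophagy, and the insulin receptor substrate Irs2 (0.55, 0.20 to 0.90). The downward genes besides Akt1 were Tbc1d7 (-1.12), Eif4ebp1 (-1.03), a translation repressor that mTOR complex 1 inactivates, Inpp5e (-0.86), Nprl2 (-0.71), Lamtor3 (-0.53), and Ddit4 (-0.53), an mTOR inhibitor induced by stress.

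With papain, 0 of 70 genes were past the fold upward and 4 downward in KO, where 2.35% and 10.7% of all genes were. Below 0 at any size were 56 of the 70, where 66.1% of all genes were. The 4 genes were the AKT phosphatase Phlpp1 (-0.93, -1.49 to -0.38), Eif4ebp1 (-0.74, -1.27 to -0.22), Ulk1 (-0.63, -0.97 to -0.30) and Pdpk1, the kinase that phosphorylates AKT after PI3K is activated (-0.51, -0.76 to -0.26). Eif4ebp1 was thus past the fold downward with both treatments, for which no share of all genes is given here. It was at 10.8 and 5.31 CPM in WT and KO with DPBS (83 and 28 UMIs). With papain it was at 12.2 and 7.29 CPM (102 and 46 UMIs). The part of dividing cells in the Eif4ebp1 ratios was not tested. Those cells made up 8.43% and 6.01% of the class in WT and KO with DPBS and 11.96% and 8.68% with papain.

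From DPBS to papain in WT, 8 of 70 genes were past the fold upward and 1 downward, where 11.2% and 2.89% of all genes were. Sesn2 (1.37, 0.74 to 2.03), Ulk1 (0.93, 0.59 to 1.27), Hif1a, a transcription factor of glycolysis (0.89, 0.77 to 1.01), and Phlpp1 (0.83, 0.33 to 1.34) were highest, then Irs2, Pik3c2a, Sesn3 and Ppp2r5c between 0.50 and 0.57, and Nprl2 was lower (-0.51). In KO Ddit4 alone was past the fold upward (0.71, 0.45 to 0.98) and none of 68 downward, where 7.64% and 2.62% of all genes were. The lists hold activators and inhibitors, so their counts give no direction of signalling.

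The genes most like each member in level over the 40 combinations of class and library were found among 5708 genes by Pearson correlation. Akt1 was most like Hip1 (0.94) and Cdkn1a (0.93), Rictor like Pdcd4 (0.91) and Ets1 (0.91), and Pik3r1 like Serpinb9 (0.91) and Klrk1 (0.88). Rptor was most like Lsm7 (0.90) and Zfp511 (0.90), Akt2 like Selenon (0.90) and Ppp1r3b (0.88), Tsc2 like Ccdc115 (0.82) and Tmem208 (0.81), and Pik3cd like Ddx58 (0.81) and H2afj (0.81). The weakest likeness was for Pik3ca, with Usp15 (0.76) and Txndc11 (0.75), and for Mtor, with Eif4h (0.64) and Trio (0.64). The points share libraries and depth, and the correlations describe patterns over classes only.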

How the data were processed

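Sorted lung CD45.2+ immune cells were profiled by 10x Genomics 3′ v3 single-cell RNA sequencing, with 1 library for each of 4 groups. The authors deposited raw counts, as unique molecular identifiers (UMIs) per gene and barcode. The submitters' processing notes name Cell Ranger and mm10, and whether counting used strand is not given in the sources used here.

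Cells with more than 200 genes and under 15% mitochondrial UMIs were kept. The 267 to 557 cells per library with the highest doublet scores from scanpy 1.11.5 were removed as doublets. Their number was set beforehand at 0.8% of cells per 1000 barcodes of the library. The tool's own threshold marked 2.70% to 4.31% of cells. The median depth of kept cells was 5852 to 6686 UMIs. Seurat 5.3.0 (R 4.3.3) clustered the cells with 2000 variable genes, 30 dimensions and a resolution of 0.8. The 26 clusters and 17 T sub-clusters were named from markers by a rule set after the clusters were seen, and the pathway genes were kept out of clustering. The ending -like is left off in plot labels.

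UMIs were summed per class and library. Between classes, edgeR 4.0.16 (quasi-likelihood test, TMM, library as block, 27 residual degrees of freedom) was used, with an adjusted p under 0.05 as the threshold, and DESeq2 1.42.0 as an alternative. It was tested on simulated data. The same 4 libraries enter each class, and cells were never treated as replicates. With 1 library per group, no test was run between groups. CPM has exact Poisson and log2 ratios exact conditional (Clopper-Pearson) intervals, which cover counting error only, and a count of 0 was given an upper limit of 3 counts. Python 3.11.15 with scipy 1.17.1 was used.

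The 9 genes, the lists and the tests were chosen with earlier results of these data known. From the lists, genes past the fold in CD4 T-like cells were named, at most the 3 largest of each list, and for each of the 9 genes the 2 genes with the highest Pearson correlation of log2(CPM + 1), among genes with a mean of at least 20 CPM. The alternatives were other cell gates, doublets kept, a limit of 10% mitochondrial UMIs, a mean over cells, TMM or DESeq2 size factors, no filter on low counts and leaving out each library. A further planned gate on CD4 T-like cells is not reported here. The alternatives within 1 cluster were added after the data were seen.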

Additional observations from a re-analysis of the deposited data

How the results depend on the processing

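Of 1682 values recomputed for 266 results under the alternatives, 1590 kept their direction and side of the threshold or moved by less than the counting interval, and 92 did not. With 1 library per group, differences between groups carry counting error only, and genes with few UMIs, such as Mtor and Tsc2, allow wide intervals.

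The log2 ratio of KO to WT for Akt1 in CD4 T-like cells given DPBS, -0.52, turned to 0.088 within sub-cluster T0. The summed ratio of the 9 genes with papain, -0.16, was -0.078 in cells gated by transcripts, -0.25 without T sub-clusters that held both CD4 and CD8 cells, -0.083 with TMM factors and -0.29 within sub-cluster T1. The summed ratio of papain to DPBS in WT, 0.15, was 0.23 within T1. The cause of these shifts was not tested. Against CD8 T-like cells 2 genes were called with DESeq2 and 2 with doublets kept, against 1, the added gene being Rptor both times. Between CD4 T-like and B-like cells, leaving out each library in turn gave 3 to 6 called genes, with 3 without DPBS WT. The same gave 1 for CD8 T-like, 8 for alveolar macrophage-like, 5 to 7 for monocyte-like and 5 for neutrophil-like cells. Pik3cd stayed lower in KO under each alternative reported in the 5 classes.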
